A study of Gallus gallus with 71 samples.

Results

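The genes described here were the 100 genes with the highest RNA level in the nucleus of the hippocampal commissure (nCPa) relative to the 2 hypothalamic regions sampled beside it, the preoptic-anterior hypothalamic area (POAH) and the paraventricular nucleus (PVN), in broiler chicks. They were chosen by measured values. Counts were divided by the library total and scaled to CPM, the usual unit of bulk RNA-seq that sets every library to the same total, the median CPM of each gene was taken over all libraries of a nucleus, and genes with an nCPa median of at least 5 CPM were ranked by a score. The score was the log2 ratio of the nCPa median to that of the POAH or the PVN, whichever was smaller, with 1 CPM added to each median. Of 30108 genes in the table, 12513 had an nCPa median of at least 5 CPM, and the 100 with the highest score were the members. Tissue punches came from Gallus gallus chicks hatched from Hubbard x Cobb-500 eggs. Control eggs were incubated at 37.5°C, and eggs of the embryonic heat conditioning (EHC) group were held at 39.5°C for 12 h per day from embryonic day 7 to 16 and at 37.5°C for the rest of each day. Each treatment had 1 incubator, so treatment and incubator cannot be told apart. On day 4 after hatch control and EHC chicks alike were put to a heat challenge at 36°C. Brains were collected at hour 0 (before this heat challenge), hour 2 and hour 12, so the chicks of hour 0 were not exposed to it. No unheated chicks were collected at hour 2 or 12, so heat and time of collection cannot be told apart. There were 24 nCPa, 24 POAH and 23 PVN libraries, 71 in all, with 4 in each group of nucleus, treatment and hour except EHC PVN at hour 12, which had 3, and both sexes were in each group. The study's methods state that the nuclei were taken from the same chicks, so libraries of different nuclei are not independent of each other, while within a nucleus each library is another chick.

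The nCPa lies at the septum of the bird brain and holds neurons that make corticotropin-releasing hormone, the peptide that starts the pituitary and adrenal response to a stressor. The PVN holds the better known population of these neurons, and the POAH senses temperature and sets heat loss and heat production. A gene with more RNA in the nCPa than in both other punches can mark neurons of the septum or pallium, fibre tracts, or any other tissue a punch takes in. In birds the female is the sex with unlike sex chromosomes, a Z and a W, and genes present only on the W give RNA only in females.

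None of the 100 members has a symbol in the sources used here. The deposited table holds Ensembl gene IDs alone, the 93 IDs that the study's tables pair with a symbol include no member, and no role can therefore be given to any member. For the same reason only 1 of 149 genes listed as markers of cell types and of heat and neuronal activity could be looked up, so the labelled nuclei were not checked against defining markers. It was MGP, a matrix protein gene of meninges and vessels, whose median was 1.20 CPM in the nCPa, 1.84 CPM in the POAH and 0.755 CPM in the PVN. One nCPa library, EHC replicate 3 of hour 2, held 129 CPM of MGP, and none of the others in the nCPa exceeded 4.40 CPM. The highest POAH library held 404 CPM. The part of meningeal tissue in the results was not tested.

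Sequencing depth in the nCPa lay between 910033 counts (control replicate 2 of hour 2) and 9370799 counts (EHC replicate 4 of hour 0), and all 100 members passed the filter on low counts (over 1 CPM in at least 4 of the 71 libraries), as did 20363 genes in all. In the series 63 genes had a lowest level in libraries labelled female at hours 0 and 12 that was over 5 times their highest level in libraries labelled male. Their summed level put each library on a female or a male side, with a gap between the sides. The side went against the sex label in 5 libraries of hour 2, namely 1 nCPa, 2 POAH and 2 PVN libraries. The 63 genes were chosen to follow the labels at hours 0 and 12, so only libraries of hour 2 were free to go against theirs. The labels were kept in all tests, and main values of comparisons that include these libraries are also given without them. By side, 13 of 24 nCPa libraries, 12 of 24 POAH libraries and 11 of 23 PVN libraries were female.

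The member ranked 1 (ENSGALG00010027588) had a median of 108 CPM in the nCPa, 22.4 CPM in the POAH and 14.6 CPM in the PVN, a score of 2.22. Its 24 nCPa libraries ran from 0.593 to 277 CPM, its POAH libraries from 0.856 to 165 CPM and its PVN libraries from 1.24 to 170 CPM. The nuclei overlapped over most of this range, and the lowest nCPa library lay below every POAH and PVN library. The member ranked 2 (ENSGALG00010019700) ran from 0.623 to 243 CPM in the nCPa with a median of 27.8 CPM, and its medians were 5.57 CPM in the POAH and 2.86 CPM in the PVN. Its highest library of all was a POAH library, at 295 CPM. The member ranked 5 (ENSGALG00010005359) was the most abundant of the first 10, with medians of 331 CPM in the nCPa, 94.1 CPM in the POAH and 67.6 CPM in the PVN and with nCPa libraries between 12.7 and 835 CPM. Of all members, the one ranked 94 (ENSGALG00010013576) had the highest nCPa median, 546 CPM, against 306 CPM in the POAH and 199 CPM in the PVN. These levels chose the members, so no test of the nuclei is given.

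**Figure D1:**
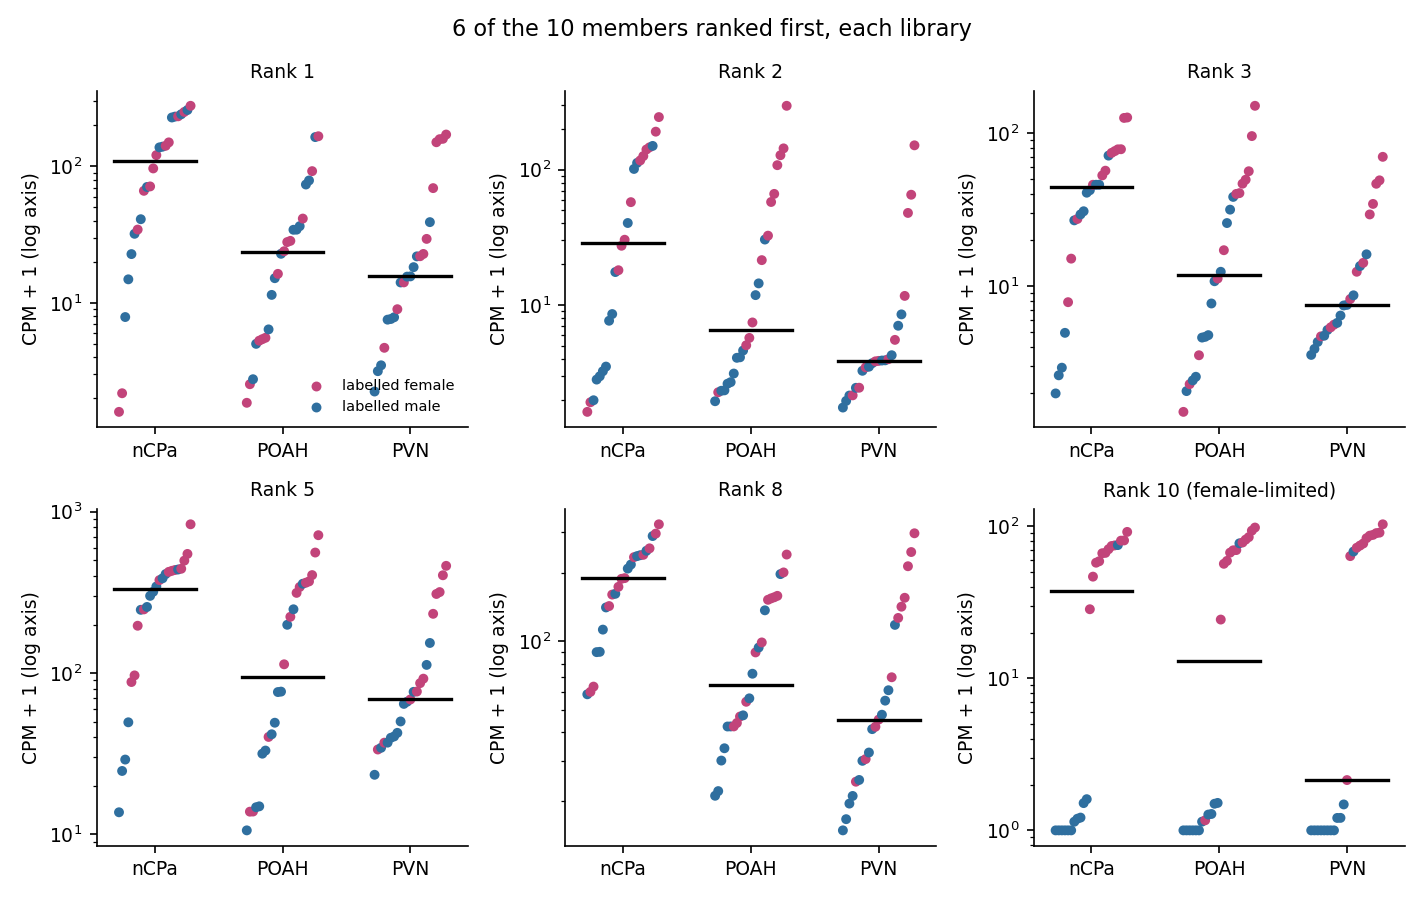
CPM plus 1 (log axis) of 6 of the 10 members ranked first in each library of the nCPa, POAH and PVN, with libraries sorted by level within a nucleus, coloured by labelled sex, and a black bar at the median. The nuclei overlap for each member, as for rank 1, whose nCPa libraries run from 0.593 to 277 CPM, and rank 10 splits by sex in all 3 nuclei.

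The score ran from 0.81 to 2.22 over the members, with a median of 1.03. The threshold fell in a dense part of the ranking. The member at rank 100 had a score of 0.815 (medians of 48.0, 26.8 and 24.96 CPM in the nCPa, POAH and PVN), and the first gene outside the list had 0.814 (6.29, 3.15 and 0.241 CPM). Ranks 96 to 99 had scores of 0.829 to 0.816, and the 4 genes after the first one outside had scores of 0.813 to 0.800.

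The 100 members fell into a set of 26 female-limited genes and 74 others. The 26 were among the 63 genes that marked sex. Their summed level was 1061.5 to 1398 CPM in the nCPa libraries on the female side and 2.51 to 18.9 CPM in those on the male side, and it was 877 to 1377 CPM against 3.14 to 13.9 CPM in the POAH and 1136 to 1401 CPM against 1.91 to 25.5 CPM in the PVN. Each nucleus therefore held the same 2 levels of these genes. The member ranked 10 (ENSGALG00010012906), a gene of this set, had medians of 36.6, 11.9 and 1.14 CPM in the nCPa, POAH and PVN over all libraries, while its highest libraries were alike, at 90.8, 97.1 and 102 CPM, and 6, 6 and 8 libraries were at 0.

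Within a side these 26 genes had scores near 0. On the female side their score, computed from the medians of those libraries alone, ran from -0.31 to 0.10 with a median of -0.08, and on the male side from -0.47 to 0.46 with a median of 0. It was above 0 on both sides in 1 of the 26. On the male side their levels were near 0, where the 1 CPM added holds the ratio close to 0. Over all libraries the same genes had scores of 0.85 to 1.55. A median over both sexes falls on the female level where female libraries are the majority, as in the nCPa (13 of 24), and on the male level where they are the minority, as in the PVN (11 of 23). With an equal number (POAH, 12 of 24) it falls between. The data thus went against calling these 26 genes enriched in the nCPa, and they are called female-limited members below.

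**Figure D2:**
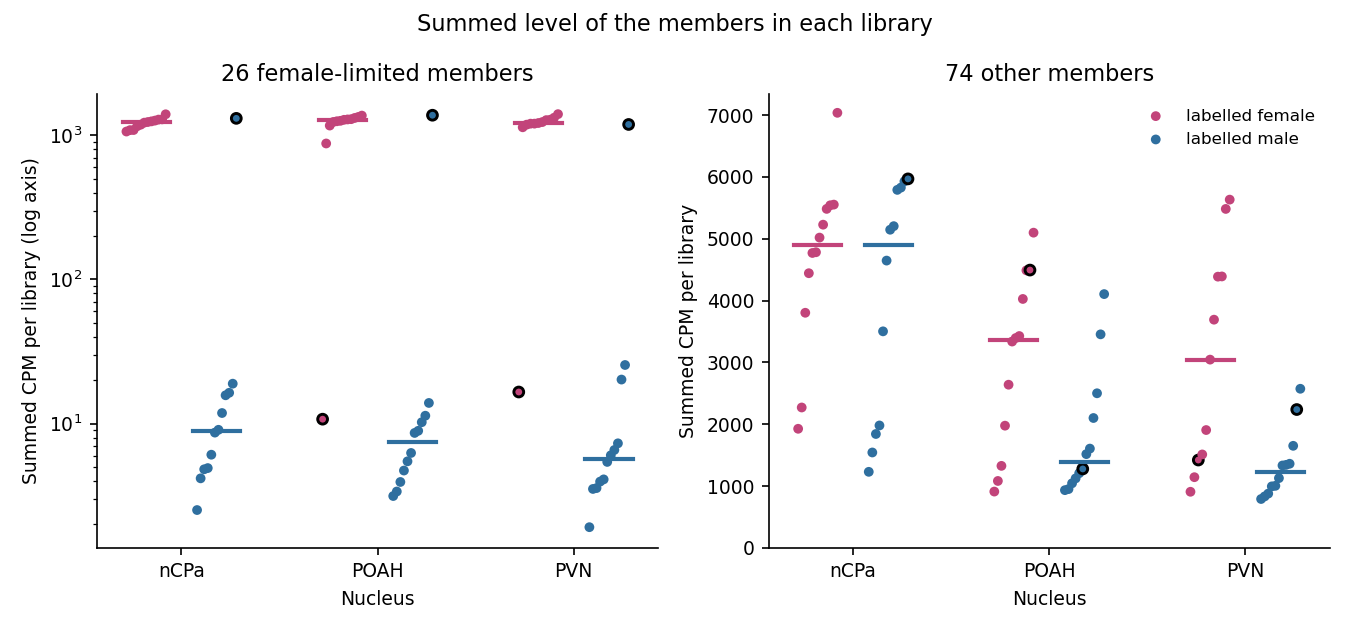
Summed CPM per library of the 26 female-limited members (left, log axis) and of the 74 other members (right) in the 3 nuclei, with points coloured by labelled sex, bars at the median of each labelled sex and black rings around the 5 libraries whose expression went against the label. On the left each nucleus shows the same high and low level (1061.5 to 1398 and 2.51 to 18.9 CPM in the nCPa), and on the right the nCPa median is the highest of the 3.

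The other 74 members are described within a side and within a group in the same way. These values come from the libraries that chose the members and so restate the choice in part. The median level of the 74 was 26.7 CPM in the nCPa, 10.5 CPM in the POAH and 7.04 CPM in the PVN, and the PVN median was below the POAH median in 61 of them. The score was above 0 on both sides in 68 of the 74 and at least 0.5 on both sides in 45. It was larger on the male side in 52 members, with a median of 0.99 on the male and 0.65 on the female side. Within the 6 combinations of treatment and hour, the nCPa group had the highest median of the 3 nuclei in all 6 for 29 members and in at least 5 for 56. The count was lowest in control chicks at hour 2, 48 of 74, and highest in EHC chicks at hour 12, 72 of 74. Separation between libraries was incomplete: 50 of the 74 had at least 1 nCPa library above every POAH and PVN library, and no member had more than 8 of 24 such libraries. In bulk punches, fewer cells of a type and less RNA per cell cannot be told apart.

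**Figure D3:**
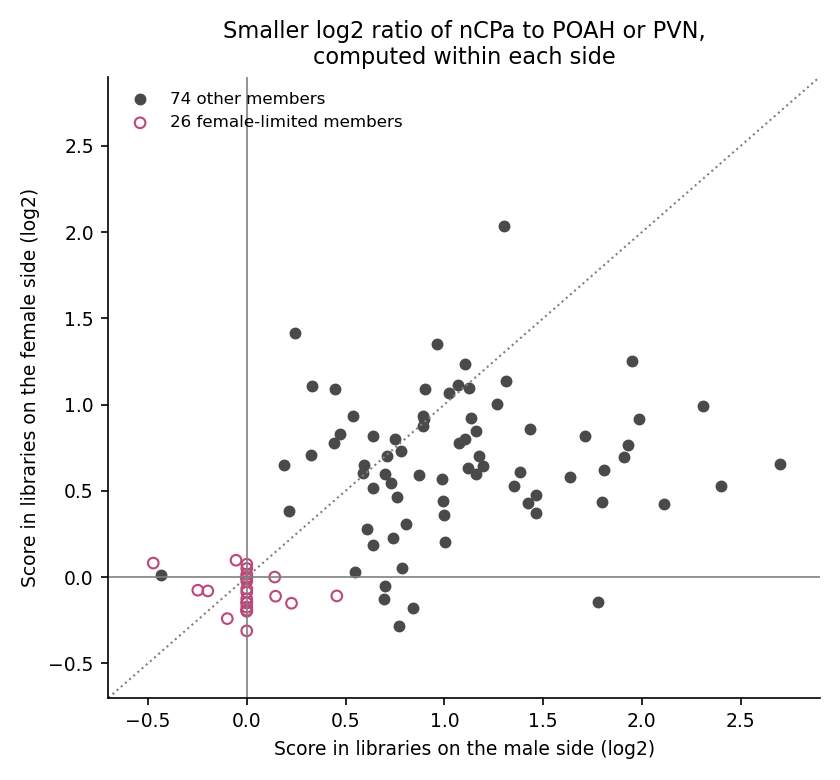
Score (smaller log2 ratio of nCPa to POAH or PVN) of each of the 100 members computed in libraries on the male side (x axis) and on the female side (y axis), with the dotted line marking equal scores. The 26 female-limited members lie around 0 on both axes, and 68 of the 74 others lie above 0 on both.

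The summed level of the 74 members was 1229 to 7036 CPM over the nCPa libraries (median 4899), 910 to 5098 CPM over the POAH (median 2038) and 790 to 5632 CPM over the PVN (median 1420). The ranges overlapped, since 5 nCPa libraries held less than the POAH median. Of these, 4 were labelled male (EHC replicate 4 of hour 0, control replicate 1 and EHC replicate 2 of hour 2, and control replicate 1 of hour 12) and 1 female (control replicate 4 of hour 12). The labels do not name the chick, but their library numbers run in threes of POAH, nCPa and PVN with 1 treatment, hour and labelled sex. In 1 such run, of controls at hour 2 labelled female, the sides differed. Its nCPa library (control replicate 2) lay on the female side, and its POAH and PVN libraries lay on the male side. That nCPa library matched its label, so values without libraries against their label still include it. Within all such runs the summed level was higher in the nCPa than in the POAH in 22 of 24 and higher than in the PVN in 19 of 22. The members were chosen for this order over the same libraries, so these counts restate the choice in part.

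The members differed in how they varied over the 24 nCPa libraries. Grouped by the Pearson correlation of log2(CPM + 1) (average linkage, distance of 0.5), they formed 5 groups of 4 members or more and 3 smaller ones. These correlations describe libraries that differ in sex, treatment, hour and depth at once. Group 2 was the set of 26 female-limited members, with a median correlation of 0.99 between its genes. Group 1 held 46 of the others (median r 0.70), group 3 held 11 (0.72), group 4 held 9 (0.77) and group 5 held 4 (0.77). The rank 1 member was in group 3, rank 4 in group 4, and ranks 2 and 5 in group 1.

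For group 1 the nCPa libraries were sorted by level and split at the widest gap, a rule that gives 2 sets in any data. The mean of log2(CPM + 1) over its 46 genes was 2.77 to 3.40 in 6 libraries and 4.23 to 5.72 in the other 18. The 6 low libraries were EHC replicate 4 of hour 0, control replicate 1 of hour 2, EHC replicates 2 and 3 of hour 2, and control replicates 1 and 4 of hour 12. Of these, 2 were labelled female and 4 male. None was a control library of hour 0 or an EHC library of hour 12. In the POAH the same mean had a median of 3.46 and in the PVN of 3.13, so that the low nCPa libraries held group 1 at the level of a typical POAH or PVN library. The libraries next to these 6 by number had means of 2.75 to 3.24 in the POAH and 2.64 to 3.25 in the PVN. Those of the POAH all lay below the POAH median, while those of the PVN ran from below to above the PVN median. The POAH reached 5.70 and the PVN 5.36 in their highest library.

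Groups 3 and 4 varied partly together in the nCPa (r = 0.67 between their mean levels over 24 libraries), and each was less tied to group 1 (r = 0.20 and 0.43). Group 5 ran against group 1 in the nCPa (r = -0.53) but not in the POAH (0.25) or the PVN (0.44). In the nCPa its mean of log2(CPM + 1) was highest, at 6.44, in control replicate 4 of hour 0, and lowest, at 2.69, in control replicate 3 of the same hour. Outside the nCPa, the median correlation within group 1 was 0.68 in the POAH and 0.64 in the PVN, and within group 5 it was 0.79 and 0.93. Over all pairs of the 74 members, which include the pairs within group 1, it was 0.48, 0.53 and 0.58 for nCPa, POAH and PVN. Group 1 was correlated with groups 3 and 4 at 0.76 and 0.82 in the PVN. The groups were cut from correlations over the nCPa libraries. A sharper separation of groups there thus follows in part from the grouping, and whether co-variation differed between nuclei was not tested.

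**Figure D4:**
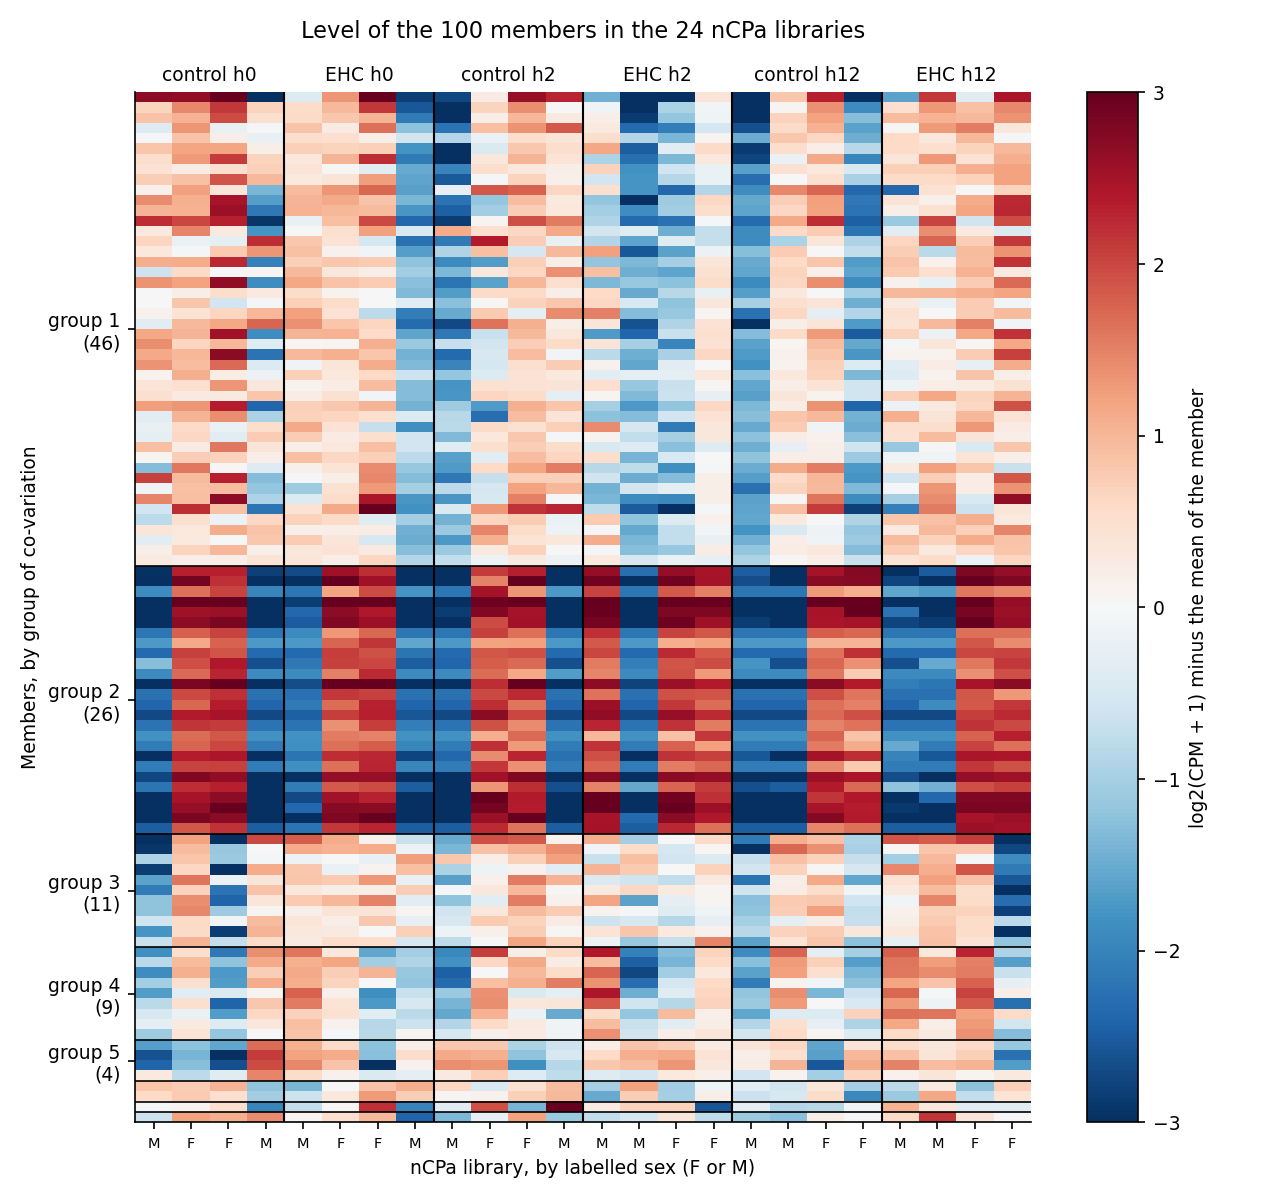
Level of the 100 members (rows, sorted by group of co-variation, numbers of genes in brackets, the last 4 rows being 3 groups of 1 or 2 genes) in the 24 nCPa libraries (columns, by treatment and hour, marked by labelled sex), as log2(CPM + 1) minus the mean of the member. Group 2 follows sex apart from 1 library labelled male at hour 2 in EHC chicks, and group 1 is low in 6 libraries spread over 4 of the 6 groups.

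Spread over the nCPa libraries differed widely between members. The SD of log2(CPM + 1) was smallest in the members ranked 100 (ENSGALG00010004132, 0.47) and 98 (0.57). It was largest in female-limited members, up to 3.61 in that ranked 18, and outside that set in those ranked 2 (2.50) and 1 (2.12).

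EHC and control chicks were compared at each hour in the nCPa, a contrast that the choice of members did not use. The choice did use the levels of these libraries. It needed a high median over them, so genes that are high in some of them were favoured. A shared lean of the members is therefore a description that is not independent of the choice. No member passed at an adjusted p of at most 0.1 at any hour (quasi-likelihood test of edgeR, Benjamini-Hochberg over 20363 genes, 4 against 4 libraries, labelled sex in the model). Over all genes 0% were called at hour 0, 0% at hour 2 and 0.00982% at hour 12. At an unadjusted p under 0.05, 2 members were found at hour 0, 10 at hour 2 and 10 at hour 12 (9 of the 74 and 1 female-limited member), against 966, 1845 and 2256 of 20363 genes. DESeq2 called no member at hour 0.

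At hour 0 the groups of co-variation leaned apart. Group 1 had a median log2 fold change of -0.55 with 10 of 46 positive, group 3 of 0.38 with 9 of 11 positive and group 4 of 0.37 with 9 of 9 positive. Over all 74 members the median (EHC over control) was -0.02, against 0.01 over all genes, and 33 were positive. Leaving out 1 library at a time moved the median between -0.37 (without EHC replicate 1) and 0.09 (without EHC replicate 4). The member ranked 92 (ENSGALG00010018807) measured 24.97, 77.0, 80.2 and 81.3 CPM in EHC chicks and 87.3, 90.3, 127 and 151 CPM in controls. All EHC libraries lay below all controls, with a log2 fold change of -0.83 (SE 0.34, edgeR adjusted p = 0.907), and an exact two-sided permutation test gave p = 0.0286, the smallest that 4 against 4 libraries allow. Groups that do not overlap always give this value, and the member was named for its small p in the same libraries. It was the only one of the 74 with EHC libraries all lower, where 1.08% of all genes had that pattern. The member ranked 7 had the smallest p of those with a positive fold change, 1.12 (SE 0.65, edgeR adjusted p = 0.907), and its groups overlapped.

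At hour 2 the median log2 fold change of the 74 was -0.26 and 53 of them were negative. Without EHC replicate 1, 65 were negative and 20 of the 74 (27.0%), 19 of them lower, had an unadjusted p under 0.05, against 8.48% of all genes. Over all genes with that library the median was 0.03. The median ran from -0.75 to -0.03 with 1 library left out. It was -0.03 without control replicate 4, -0.61 without control replicate 1 and -0.75 without EHC replicate 1, the nCPa library on the female side that is labelled male. The member ranked 25 (ENSGALG00010019061) measured 5.47, 9.90, 11.2 and 12.8 CPM in EHC chicks and 24.2, 26.4, 37.6 and 38.1 CPM in controls. The groups did not overlap, and the log2 fold change was -1.53 (SE 0.20, edgeR adjusted p = 0.202, exact permutation p = 0.0286). DESeq2 called this member alone, with an adjusted p of 5.53e-06, where it called 1.03% of all genes lower in EHC chicks. The member ranked 90 had a lower value still, -2.75 (SE 0.74, edgeR adjusted p = 0.273), but it was also low in control replicate 1, at 5.205 CPM. Higher in EHC chicks was the member ranked 26 (ENSGALG00010005525), with 10.9 to 23.4 CPM against 5.205 to 12.2 CPM and a log2 fold change of 1.20 (SE 0.32, edgeR adjusted p = 0.273). Of the 74 members, 2 had all EHC libraries below all controls (2.70%), and 3.35% of all genes did. The 26 female-limited members had a median log2 fold change of 2.02 at this hour, which was 0.16 without EHC replicate 1.

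At hour 12 most of the 74 members had higher values in EHC chicks, a lean that is not independent of the choice of members. The log2 fold change was positive in 64 of 74 with a median of 0.70, against -0.01 over all genes. Their summed level was 5018 to 7036 CPM in EHC libraries (5952 ± 830, mean ± SD, n = 4) and 1229 to 5145 CPM in controls (3267 ± 1978, n = 4). The highest control library lay above the lowest EHC library, and control replicates 1 and 4 were the 2 low ones. With 1 library left out the median fold change stayed between 0.40 and 1.21. It was 0.40 without control replicate 1, 1.09 without control replicate 3 and 1.21 without control replicate 2.

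The member ranked 29 (ENSGALG00010005583) measured 17.4, 18.8, 38.9 and 50.1 CPM in EHC chicks and 2.21, 5.13, 5.19 and 14.2 CPM in controls at hour 12. The log2 fold change was 2.14 (SE 0.46, edgeR adjusted p = 0.226, exact permutation p = 0.0286). The member ranked 92 measured 85.4, 115, 137 and 192 CPM against 19.3, 30.3, 50.2 and 63.0 CPM. Its value of 1.52 (SE 0.31, edgeR adjusted p = 0.225) had the opposite sign to that at hour 0, and the difference between the hours was not tested. DESeq2 called 4 members at hour 12, all higher in EHC chicks, with 0.413% of all genes called in that direction. EHC libraries were all above all controls in 7 of the 74 (9.46%), and in 5.45% of all genes. The 2 members with negative fold changes and the smallest p, ranked 16 and 19, had adjusted p of 0.769 and 0.813 (edgeR).

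By group of co-variation, 43 of 46 members of group 1 and 9 of 9 of group 4 had positive fold changes at hour 12, with medians of 0.81 and 0.92. Group 3 had a median of 0.01 with 6 of 11 positive. At hour 2 group 1 had a median of -0.40 with 7 of 46 positive, and group 4 one of 0.37. The members of a group vary together, so these counts are not independent observations.

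**Figure D5:**
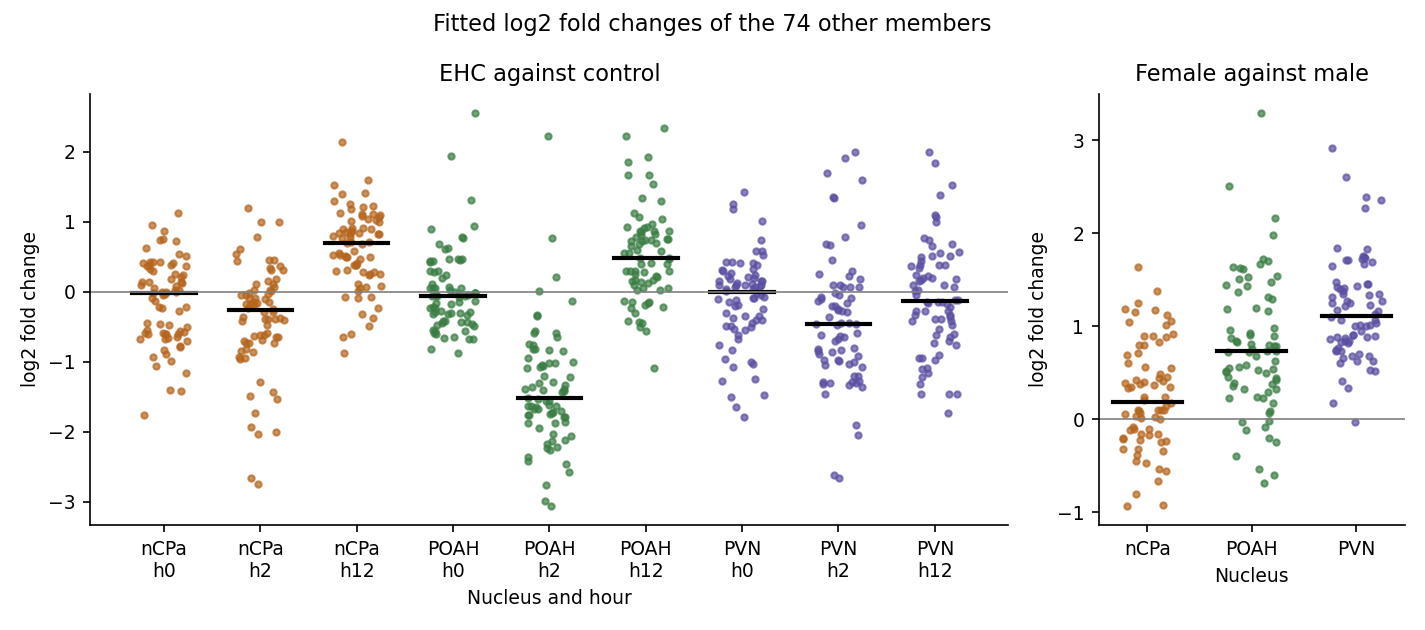
Fitted log2 fold changes (edgeR) of the 74 other members, 1 point a member, for EHC against control at each hour in each nucleus (left) and for female against male in each nucleus (right), with a black bar at the median. In the nCPa the medians are -0.02, -0.26 and 0.70 at hours 0, 2 and 12. In the POAH the median is -1.52 at hour 2 and 0.48 at hour 12, and the female to male medians are 0.19, 0.73 and 1.12 in the nCPa, POAH and PVN.

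Hours of the heat challenge were compared within the nCPa over both treatments, with the same limit from the choice of members. No member was called between hours 2 and 0, 12 and 0, or 12 and 2, by edgeR or by DESeq2, and over all genes edgeR called 0%, 0.0246% and 0.00491%. At an unadjusted p under 0.05, edgeR gave 10, 3 and 3 members and 1331, 1808 and 1818 of all genes. The 74 members had median log2 fold changes of -0.18 at hour 2 against 0, 0.01 at hour 12 against 0 and 0.22 at hour 12 against 2. Without the nCPa library that went against its label the first was -0.38 and the last 0.41, and 7 of the 74 (9.46%) had an unadjusted p under 0.05 at hour 12 against 2, with 9.64% of all genes. At hour 2 against 0 the 10 members were all lower and all in group 1, in which 9 of 46 were positive. The member ranked 20 (ENSGALG00010016180) was among them, with 0.493 to 26.4 CPM at hour 2 (median 5.71, 8 libraries) and 3.63 to 79.1 CPM at hour 0 (median 28.8, 8 libraries). The ranges overlapped, with a log2 fold change of -1.27 (SE 0.52, edgeR adjusted p = 0.734). The 26 female-limited members had medians of 1.27 at hour 2 against 0 and -1.02 at hour 12 against 2, and these were -0.05 and 0.11 without that library.

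Sex was compared over all libraries of a nucleus with treatment and hour in the model. The class of 26 was defined by sex, so its calls (26 of 26 higher in females in each nucleus) are a description. Of the other 74 members, 1 was called in the nCPa (edgeR, adjusted p of at most 0.1), where 2.54% of all genes were called higher in females. It was the member ranked 86 (ENSGALG00010024997), with 1.37 to 57.4 CPM in 12 libraries labelled female (median 14.2) and 1.48 to 24.2 CPM in 12 labelled male (median 3.67). The log2 fold change was 1.64 (SE 0.49, edgeR adjusted p = 0.0746), and the ranges overlapped. The 74 members had a median of 0.19 in the nCPa with 49 positive, and of 0.32 without the library that went against its label, with 1 member called and 2.01% of all genes called higher. DESeq2 called 2 of the 74 higher (2.70%), with 2.68% of all genes.

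In the POAH and PVN more of the 74 members were higher in females. In the POAH 18 of 74 (24.3%) were called higher and none lower, with 5.80% of all genes called higher. In the PVN 39 of 74 (52.7%) were called higher and none lower, with 2.60% of all genes. Without the 2 libraries of each nucleus that went against their label, 16 of 74 (21.6%) were called in the POAH and 60 of 74 (81.1%) in the PVN, with 3.51% and 5.47% of all genes. DESeq2 called 31 in the POAH and 44 in the PVN, all higher, with 6.92% and 2.70% of all genes. The member with the smallest p in the PVN was the one ranked 52 (ENSGALG00010013531), with 2.58 to 56.5 CPM in females (median 10.2) and 0.498 to 10.3 CPM in males (median 1.75) and a log2 fold change of 2.91 (SE 0.39, edgeR adjusted p = 0.000123). In the POAH it was the member ranked 85 (ENSGALG00010010147), with medians of 11.1 CPM in females and 3.91 CPM in males and a log2 fold change of 1.36 (SE 0.28, edgeR adjusted p = 0.00604). This comparison was not independent of the choice of members. The choice needed a low median in the POAH and the PVN, and a gene that is low in males has a low median where male libraries are the majority or near it. Whether the sex difference differed between nuclei was not tested.

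In the summed level of the 74 the same order appeared. On the female side the medians were 5018, 2988 and 3044 CPM in the nCPa, POAH and PVN, and on the male side 4646, 1560 and 1230 CPM. The highest male-side PVN library held 2573 CPM, below the female-side median. The sides overlapped in the PVN, at 907 to 5632 CPM on the female and 790 to 2573 CPM on the male side.

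The comparisons of EHC and hour gave no edgeR call among the members in the POAH or the PVN either, with 0.00491% of all genes called for EHC at hour 2 in the POAH, 0.255% for EHC at hour 12 in the PVN and 0% in the other 10 comparisons. The choice of members needed low medians over these POAH and PVN libraries, so genes that are low in some of them were favoured, and the values that follow are a description that is not independent of the choice. In EHC chicks of the POAH at hour 2, 70 of the 74 members had negative fold changes with a median of -1.52, against 0.01 over all genes. At an unadjusted p under 0.05, 50 of 74 (67.6%) were found, 49 of them lower, against 1823 of 20363 genes (8.95%). DESeq2 called 23 of the 74 lower and 1 higher, where 0.604% of all genes were called lower. In 15 of the 74 (20.3%) all EHC libraries were below all controls, as in 3.08% of all genes. The member ranked 51 (ENSGALG00010017413) measured 13.2, 16.1, 23.1 and 24.3 CPM in EHC chicks and 53.3, 61.8, 62.2 and 68.2 CPM in controls, a log2 fold change of -1.63 (SE 0.20, edgeR adjusted p = 0.107). In this group 1 library of each treatment went against its sex label, and without both the median of the 74 was -1.39 and 33 (44.6%) had an unadjusted p under 0.05, with 5.63% of all genes. The summed level was 910 to 1976 CPM in the EHC and 2100 to 4493 CPM in the control libraries of that hour, which did not overlap. At hour 12 the 74 leaned the other way in the POAH, with a median of 0.48 and 60 positive, and 7 (9.46%) had an unadjusted p under 0.05, all higher, with 6.27% of all genes. Between hours in the POAH, the 74 had medians of -0.15 (hour 2 against 0), -0.32 (12 against 0) and -0.21 (12 against 2). Positive fold changes were found in 37.8%, 14.9% and 25.7%. Without the libraries against their label the first was 23.0% and the last 40.5%. An unadjusted edgeR p under 0.05 was found in 1.35%, 4.05% and 1.35%, with 4.45%, 4.90% and 5.26% of all genes.

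In the PVN the 74 members had lower values at hour 2 than at hour 0, over both treatments, 71 of 74 having negative fold changes and the median being -0.88. At an unadjusted p under 0.05, 43 of the 74 (58.1%) were found by edgeR, with 6.92% of all genes, and none passed the adjustment. Without the 2 libraries that went against their label the median was -1.09, with 49 (66.2%) found and 8.31% of all genes. DESeq2 called 5 lower and 1 higher, where 0.0737% of all genes were called lower. The member ranked 52 measured 0.498 to 8.57 CPM at hour 2 (median 2.37, 8 libraries) and 0.571 to 56.5 CPM at hour 0 (median 16.4, 8 libraries), with a log2 fold change of -2.85 (SE 0.49, edgeR adjusted p = 0.122). For EHC against control in the PVN the medians of the 74 were -0.01, -0.46 and -0.13 at hours 0, 2 and 12, and that at hour 2 was -0.63 without those libraries. At hour 2, 17.6% of the 74 had an unadjusted edgeR p under 0.05, with 6.59% of all genes. Without those libraries it was 33.8%, with 14.7% of all genes. For hour 12 against 2 in the PVN the median of the 74 was 0.52 and 91.9% were positive. Such a p was found in 18.9%, with 5.3% of all genes. Without those libraries 95.9% were positive and 37.8% had such a p, with 6.03% of all genes. For hour 12 against 0 the median was -0.39 and 60 of the 74 were negative. An unadjusted edgeR p under 0.05 was found in 16.2%, 11 of these members being lower, with 5.29% of all genes. Whether a fold change differed between nuclei was not tested.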

How the data were processed

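Total RNA of tissue punches was made into stranded, ribosome-depleted libraries by the authors, who trimmed reads with Trimmomatic 0.39, aligned them to the GRCg7b broiler genome with HISAT2, kept reads with a single match with SAMtools 1.10, removed duplicates and counted reads per Ensembl gene with featureCounts. Removing duplicates lowers the counts of abundant genes most. The authors deposited raw counts for 30108 genes in 71 libraries. From these, CPM by library total were computed, members were ranked as described, and genes over 1 CPM in at least 4 libraries (20363) were tested with edgeR 4.0.16 in R 4.3.3 (TMM, estimateDisp, glmQLFit, glmQLFTest) on the libraries compared, with labelled sex, or treatment and hour for the comparison of sexes, in the model. The threshold was 0.1 after Benjamini-Hochberg adjustment across all genes tested. The SE of a fold change was derived from it and its F statistic. Named members of EHC comparisons in the nCPa were also tested with exact permutation tests of log2(CPM + 1), not adjusted. These members were picked by their edgeR p in the same libraries, so the permutation p is not independent of that choice. DESeq2 1.42.0 was the main alternative. Data were simulated for EHC against control in the nCPa at hour 12, with 200 of 20363 genes changed by a log2 fold change of 2. Of the 200, edgeR called 191, with 21 false calls, and DESeq2 called 192, with 61 false calls. Hour 12 against 0 and female against male in the nCPa were simulated in the same way. There edgeR called 196 and 195 of the 200, with 42 and 35 false calls, and DESeq2 198 and 199, with 67 and 65. The changed genes were drawn from those above a minimum mean count, and the noise was independent between genes. The 74 members co-vary and had a median log2 fold change of 0.70 for EHC in the nCPa at hour 12, so this recovery does not carry over to them. Figures were drawn with matplotlib 3.10.9. The labels call libraries biological replicates and do not name the chick. All tests were within a nucleus, between chicks, and no pairing of nuclei was used in them.

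The members, the class of female-limited genes and all lists were chosen with earlier results of these data known. Members are named by rank. Those named are from the 10 ranked first, those at the threshold, those with the widest and narrowest spread, and in each nCPa comparison those called by edgeR or, failing that, those with the smallest p each way. For comparisons in the POAH and the PVN only the member with the smallest p is named, also where many were called. The rank 94 member was named after its values were seen. IDs are printed for a few, since no table pairs them with symbols, and no sequence is printed.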

Additional observations from a re-analysis of the deposited data

Results flagged for a closer look

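Of 62 groups of 4 libraries examined for a library far from the other 3, 7 were flagged, and chance flags about 1 in 20. The summed level of the 74 members that are not female-limited was far below the others in control nCPa replicate 1 of hour 0 (3502 CPM against 5203 CPM in the nearest library) and far above them in 1 control POAH library of hour 12 (3426 against 1326 CPM). Among EHC nCPa libraries of hour 0, replicate 4 was the low library for the member ranked 92 (24.97 CPM, the nearest at 77.0 CPM) and for that ranked 7 (10.0 CPM, the nearest at 24.8 CPM). It was also 1 of the 6 nCPa libraries with a low level of group 1. The summed level of the 26 female-limited members set apart 3 groups of hour 2, in which the side of the libraries was split 1 to 3. A single library was high in control POAH (1251 CPM, the next at 10.7 CPM) and in control PVN (1401 CPM, the next at 20.2 CPM), and a single library was low in EHC PVN (1.91 CPM, the next at 1188 CPM). The same split was present, without a flag, in EHC nCPa and EHC POAH of hour 2. A single library was low there, at 11.8 CPM (the next at 1085 CPM) and 10.2 CPM (the next at 877 CPM). Each group named for this sum holds 1 library whose expression went against its sex label. The sum takes 2 levels by sex, so the rate of about 1 in 20 does not carry over to it.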

How the results depend on the processing

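The list itself depended most on the libraries used. Of its 100 genes, 44 remained with mean CPM in place of the median. With control libraries only 35 remained, and with EHC libraries only 59. With libraries of hours 0, 2 and 12 only, 31, 37 and 51 remained. Of the 74 members that are not female-limited, 15 remained with control libraries only and 59 with EHC libraries only. The control list held 36 female-limited genes and the EHC list 0. The lowest score was 1.02 on the control list and 0.96 on the EHC list, against 0.81 on the main list. Of the same 74 members, 31, 32 and 51 remained with libraries of hours 0, 2 and 12 only. Alternatives chosen after seeing the data kept 32 and 54 genes with libraries labelled female and male only, 34 and 54 with libraries on the female and male side only, 60 with the mean of both sides' medians and 51 with the smaller of both sides' scores, and these 6 lists held 0 female-limited genes. TMM scaling, pseudocounts of 0.5 and 5 CPM and minimum medians of 2 and 10 CPM kept 82 to 96. Counts of members called in the nCPa rose from 0 to 1 (DESeq2) for EHC at hour 2 and from 0 to 4 (DESeq2) and 1 (all nCPa libraries in 1 model) at hour 12, and leaving out 1 replicate gave 0 to 1 calls at hour 2 and 0 at hours 0 and 12. In the other nuclei DESeq2 called 1, 24 and 1 members for EHC in the POAH at hours 0, 2 and 12, 1 in the PVN at hour 12 and 6 for hour 2 against 0 in the PVN, where edgeR called 0. The cause was not tested. Over all genes DESeq2 called 4, 282 and 336 for EHC in the nCPa at hours 0, 2 and 12 where edgeR called 0, 0 and 2, and 5, 209 and 142 for hours 2 against 0, 12 against 0 and 12 against 2 where edgeR called 0, 5 and 1. A single model of all nCPa libraries called 429, 122 and 113 genes for EHC at hour 12 and for hour 12 against 0 and 2. Leaving out control replicate 1 gave 121 genes at hour 2 and 152 at hour 12, and the earlier fit gave 654 genes for sex in place of 1026. For EHC at hours 0, 2 and 12 DESeq2 called 52, 321 and 38 genes in the POAH and 25, 28 and 223 in the PVN, where edgeR called 0, 1 and 0 and 0, 0 and 52. The other 99 recomputed counts of members called and sizes of the list equalled the main value or stayed within 1.5 times it. Most of them were 0 calls against 0 calls, for which there is no ratio. Among single members 1 fold change reversed: that ranked 19 (ENSGALG00010006623), EHC against control at hour 12, was -0.87 and ran from -1.39 to 0.15 with 1 library left out, being 0.15 without control replicate 3. The member ranked 86 was no longer called for sex with edgeR's earlier quasi-likelihood fit (1.61), which was added after seeing the data. No paired analysis was possible because every tested comparison was between different chicks, each with 1 library per nucleus, and the replicate letters in the labels are shared by all libraries of a group.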
